A study of Rattus norvegicus with 10 samples.

Results

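The genes described here encode the motors that move along microtubules: kinesin heavy and light chains, the subunits of cytoplasmic dynein, and the subunits of dynactin. They were every gene in the authors' table for miR-145 OLs whose symbol starts with Kif and a number, Kifc, Klc and a number, Dync, Dynll, Dynlr, Dynlt, or Dctn and a number. This gave 62 of the 16129 genes in that table, of which 14561 carry a symbol. The symbol Kif1bp also matched; it names the kinesin binding protein, a regulator that holds some kinesins off microtubules and is not itself a motor.

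Most kinesins carry cargo toward the growing ends of microtubules, whereas cytoplasmic dynein, working with dynactin and an adaptor, carries cargo back toward the cell body or centrosome. A separate set of kinesins builds and moves the mitotic spindle and is made mainly by dividing cells. In oligodendrocytes (OLs), which extend long branched processes before they wrap axons, this transport carries membrane, mitochondria and RNA granules outward, including the mRNA of myelin basic protein, which is translated at the myelin sheath.

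RNA was sequenced from primary cells of Sprague-Dawley rats, taken from the cortices of P1-P3 pups and grown as enriched cultures of oligodendrocyte progenitors (OPCs), in 10 libraries, 2 for each of 5 groups. In 3 groups OPCs were differentiated to OLs in medium with triiodothyronine and ciliary neurotrophic factor and assayed 5 days after transfection with the miR-145-5p mimic (miR-145), the miR-145-5p and miR-219 mimics together (miR-145+miR-219) or a scrambled mimic (miR-ctl). In the other 2 groups OPCs were kept with FGF2 and PDGFAA and assayed 24 h after transfection with the miR-145-5p inhibitor (anti-miR-145) or a scrambled inhibitor (anti-miR-ctl). Every group was thus transfected with an oligonucleotide, at 30 nM, and no untransfected cells were included. The dose of each mimic in the combined group was not stated separately. For the 2 miR-145 libraries a treatment tag also names miR-219, while their titles and descriptions name miR-145 alone, and they were taken as miR-145. The sequencing methods name lentiviral transduction, but the study's Results and the protocol labels name transfected mimics for the sequenced cells. The study defines a replicate of primary cells as cultures from a single mouse, and gives no separate definition for the rat cultures sequenced here. No label says whether equal replicate numbers in different groups mark the same animal, and the p-values measure the spread between these libraries.

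Library totals ran from 33505706 to 42684206 counts. Markers of maturing OLs were higher in miR-ctl OLs than in anti-miR-ctl OPCs for 11 of 13 genes (median log2 fold change 2.94), and OPC markers were lower for 6 of 9 and higher for 2. Markers of other cells were present in the cultures. The 10 astrocyte genes summed to 6987 and 5959 CPM in miR-ctl OLs and to 820 and 787 CPM in anti-miR-ctl OPCs. CPM are counts per 1000000 counts, after TMM scaling over all 10 libraries and not corrected for gene length. Gfap was at 4799 and 4179 CPM in miR-ctl OLs but at 8.23 and 7.81 CPM in anti-miR-ctl OPCs. The largest parts of the OPC sum were Slc1a3 (403.7 and 376.4 CPM) and Aldoc (221.2 and 212.8 CPM). Whether this RNA came from astrocytes was not tested. In miR-ctl OLs against anti-miR-ctl OPCs microglial genes were higher for 1 and lower for 6 of 12, and fibroblast and mural genes higher for 2 and lower for 1 of 5. Between anti-miR-145 and anti-miR-ctl OPCs these counts were 6 higher and 5 lower, and 0 higher and 1 lower. There astrocyte genes were higher for 2 and lower for 5 of 10. OPC markers were higher for 1 and lower for 3 of 9, and maturing OL markers higher for 2 and lower for 2 of 13. Gfap was at 40.7 and 51.1 CPM and Slc1a3 at 167 and 203 CPM in anti-miR-145 OPCs. Cspg4 is on both the OPC list and the fibroblast and mural list. It was at 576.1 and 559.8 CPM in anti-miR-ctl OPCs and at 92.8 and 56.2 CPM in miR-ctl OLs. In these bulk samples fewer cells of a type and less RNA per cell cannot be told apart.

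The mature sequence of the transfected mimic is shown because 2 groups received it and 1 group received an inhibitor of it, and it was taken from RefSeq. The seed, bases 2 to 8, is in capitals.
rno-miR-145-5p: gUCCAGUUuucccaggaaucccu
This 23-base sequence lies at chr18:57370033-57370055 on the minus strand of the GRCr8 rat build. Levels of the mature microRNA were not measured in these libraries.

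Promoter sequence was looked at because 1 set of members, the spindle kinesins, moved together in the comparisons below. RefSeq promoters (GRCr8, 250 bases before to 50 bases after the start site) were matched for 48 of the 62 members. They were searched on both strands for the letters TTTGAA (read as TTCAAA on the other strand), the core of the cell cycle homology region found in many genes of the G2 and M phases. It was present in 6 of the 11 spindle kinesins with a promoter entry (54.5%), in 2 of the 37 other members (5.41%; Dctn1 and Kif26b) and in 19.4% of the 27457 genes in the promoter table. CCAAT, searched likewise, was in 7 of the 11 (63.6%), 15 of the 37 (40.5%) and 39.6% of all promoters; neither motif contains the other. The 30 bases around the match nearest before the start site are shown for the 6 spindle kinesins, with the match in capitals, in the direction of transcription.
Kif15: ggcggcgccaagTTCAAAtctgcggccatc
Kif20b: ccccaccccaggTTTGAAagtcttttccgg
Kif22: ggaccccggcaaTTCAAAagagagaagcgg
Kif23: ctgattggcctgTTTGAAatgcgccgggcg
Kif4a: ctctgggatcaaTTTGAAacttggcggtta
Kifc1: cgacggttgaaaTTCAAAagtggcgggtgt
These windows lie at chr8:131479346-131479375 on the plus strand for Kif15, chr1:241840888-241840917 (plus) for Kif20b, chr1:191080877-191080906 (minus) for Kif22, chr8:71320646-71320675 (minus) for Kif23, chrX:69761868-69761897 (plus) for Kif4a and chr20:5000895-5000924 (plus) for Kifc1. Counted from the start site, the match begins at position -46 in Kif15, -116 in Kif20b, -16 in Kif22, -79 in Kif23, -3 in Kif4a and -22 in Kifc1. A match describes the letters only, and no factor binding was measured.

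Across the 10 libraries the members fell into a large group with nearly flat levels, most of it dynein, dynactin and kinesin-1, and smaller groups that separated OPC from OL libraries. The heat map of all members shows the spindle kinesins high in anti-miR-ctl OPCs, lower in anti-miR-145 OPCs and lowest in OLs. It shows Kif19, Kif21a, Kif26a, Kif17 and Dynll2 in the opposite order between stages.

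**Figure D1:**
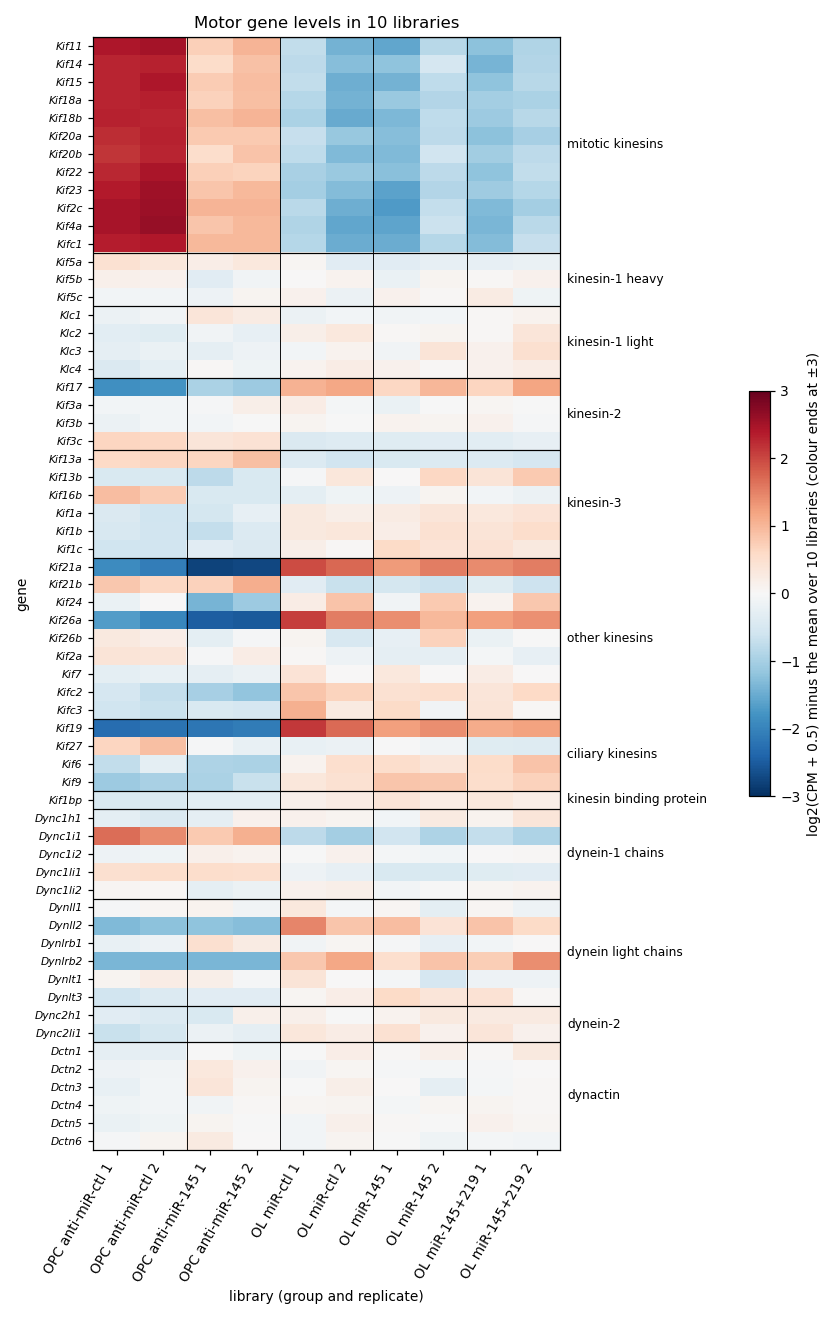
Level of each of the 62 members (rows, by role) in each of the 10 libraries (columns, by group and replicate), as log2(CPM + 0.5) minus the gene's mean over the 10 libraries. Red is above and blue below that mean, and colours end at 3 in either direction. The 12 spindle kinesins are red in the 4 OPC libraries and blue in the 6 OL libraries, while Kif19, Kif21a and Kif26a show the reverse.

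The first comparison asked how motor genes differ between stages, with miR-ctl OLs set against anti-miR-ctl OPCs. These groups also differ in medium, in the kind of control oligonucleotide and in the time after transfection, which cannot be told apart from stage. By the quasi-likelihood test of edgeR, adjusted over every gene tested by the Benjamini-Hochberg method, 23 of 61 tested members were higher in OLs (37.7%) and 21 were lower (34.4%), against 28.8% higher and 28.7% lower among all 15721 genes tested. With the 12 spindle kinesins set aside, 23 of 49 were higher (46.9%) and 9 were lower (18.4%). The median log2 fold change over the members was 0.16, and over all genes it was 0.01. Klc3, a kinesin light chain, had too few counts to be tested in either comparison that includes OPCs. Without anti-miR-ctl replicate 1, 14 members were called higher, and without replicate 2, 15 were, while all genes called went from 9042 to 5071 and 5016.

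The second comparison asked what the miR-145 inhibitor does in OPCs, and it shares its anti-miR-ctl libraries with the first, so the values of both are given side by side and their likeness is no separate result. In anti-miR-145 OPCs 7 of 60 tested members were higher (11.7%) and 19 were lower (31.7%), against 12.1% higher and 16% lower among all 15496 genes. With the spindle kinesins set aside, 7 of 48 were higher and 7 were lower, 14.6% each. The median log2 fold change was 0.02 over the members and 0.00 over all genes. With single libraries left out, 0 members were called higher without anti-miR-ctl replicate 1, 2 without replicate 2, 13 without anti-miR-145 replicate 1 and 14 without anti-miR-145 replicate 2. Without anti-miR-ctl replicate 1, 16 members in all were called. All genes called likewise went from 4348 to 2424 and 2530 without these control libraries, with the higher share of those calls going from 43.1% to 31.6% and 29.6%, and to 5314 and 7130 without the anti-miR-145 libraries. With all 5 groups in a single fit the inhibitor calls of Kif24 (adjusted p = 0.0592), Kif26a (0.0552), Dync1i1 (0.108), Kif5b (0.098), Dync2li1 (0.0844) and Dctn3 (0.07) were lost, and the stage call of Dync2h1 (0.0556).

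The kinesins of the mitotic spindle moved as a block in both comparisons. All 12 were lower in miR-ctl OLs than in anti-miR-ctl OPCs, by log2 fold changes from -3.80 to -3.18 with a median of -3.56. All 12 were also lower in anti-miR-145 OPCs than in anti-miR-ctl OPCs, by log2 fold changes from -1.66 to -1.34 with a median of -1.53. Each of these 24 calls was kept in every alternative fit and with each library left out. For all 12 genes the anti-miR-ctl OPC libraries were highest, the anti-miR-145 OPC libraries lay in between, and the 6 OL libraries were lowest, with no overlap between these tiers.

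Kif11 (ENSRNOG00000056069), the motor that pushes spindle poles apart, was at 166.9 and 176.4 CPM in anti-miR-ctl OPCs and 50.8 and 62.3 CPM in anti-miR-145 OPCs. In OLs it was at 18.1 and 11.1 CPM with miR-ctl, 10.1 and 16.9 CPM with miR-145 and 12.7 and 16.2 CPM with miR-145+miR-219. The 3 OL groups overlapped, and every OL library was below every OPC library. Its log2 fold change was -3.55 (standard error 0.24, adjusted p = 0.000252) in OLs and -1.59 (standard error 0.11, adjusted p = 0.000133) with the inhibitor.

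Kif20a and Kif23 act at the central spindle when the cell divides in 2. Kif20a was at 135.5 and 145.21 CPM in anti-miR-ctl OPCs, 50.8 and 50.7 CPM in anti-miR-145 OPCs and 17.9 and 13.0 CPM in miR-ctl OLs, with log2 fold changes of -1.45 for the inhibitor and -3.18 for the stage. Kif23 was at 55.9 and 63.0 CPM, 18.9 and 21.0 CPM, and 4.87 and 3.93 CPM in the same groups, with log2 fold changes of -1.56 and -3.75. The anti-miR-145 libraries of both genes lay close together, and both sat well under the control range.

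The chromosome-bound motors Kif22 and Kif4a had the largest decreases of the spindle set with the inhibitor. Kif22 fell from 174.0 and 198.6 CPM to 59.8 and 57.3 CPM, a log2 fold change of -1.66 (standard error 0.10, adjusted p = 9.28e-05). Kif4a fell from 124.2 and 137.9 CPM to 39.6 and 43.8 CPM, a log2 fold change of -1.64. Kif18b, a kinesin that shortens spindle microtubules, had the smallest decrease of the set, from 86.9 and 86.5 CPM to 32.7 and 35.3 CPM (log2 fold change -1.34). The other spindle motors, Kif2c, Kif14, Kif15, Kif18a, Kif20b and Kifc1, lay between these with the inhibitor, at log2 fold changes from -1.59 to -1.40, and from -3.69 to -3.34 between stages.

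The 18 genes of a proliferation list that holds no motor gene moved with them. All 18 were lower in miR-ctl OLs (median log2 fold change -3.53) and all 18 were lower in anti-miR-145 OPCs (median -1.39). Their summed level was 2803 and 2931 CPM in anti-miR-ctl OPCs, 1051 and 1183 CPM in anti-miR-145 OPCs and 411 and 320 CPM in miR-ctl OLs. The summed level of the 12 spindle kinesins was 1150 and 1240 CPM, 394 and 424 CPM, and 124 and 84.8 CPM in the same groups. Cenpe, the kinesin of the centromere, whose symbol the rule does not match, was at 129.6 and 143.5 CPM, 42.9 and 53.4 CPM, and 14.6 and 10.3 CPM. Whether the number of dividing cells differed was not tested.

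**Figure D2:**
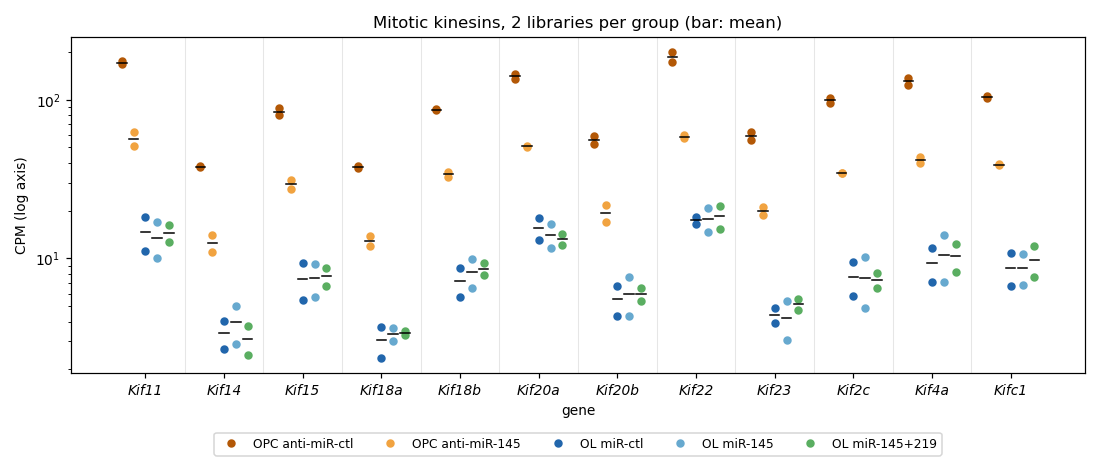
Level in CPM on a log axis of the 12 spindle kinesins, each point a library, each group 2 libraries and each bar their mean. For every gene both anti-miR-145 OPC points lie below both anti-miR-ctl OPC points, and the 6 OL points lie below both, as for Kif11 at 166.9 and 176.4, 50.8 and 62.3, and 10.1 to 18.1 CPM.

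Within OLs the spindle kinesins did not separate the mimic groups. Of the 12, 0 were called in any of the 3 mimic comparisons, and 0 reached an unadjusted p under 0.05. Their summed level was 124 and 84.8 CPM with miR-ctl, 80.7 and 129.9 CPM with miR-145 and 92.9 and 121.8 CPM with miR-145+miR-219, so the spread within a group was as large as that between groups.

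Kinesin-1, the main motor of outward transport, is a pair of heavy chains (Kif5a, Kif5b or Kif5c) with a pair of light chains that bind cargo. Of the heavy chains, 1 of 3 was lower with stage and 1 of 3 with the inhibitor, against 28.7% and 16% of all genes. Kif5b, the heavy chain found in most tissues, was at 450.5 and 442.7 CPM in anti-miR-ctl OPCs and 317.8 and 377.0 CPM in anti-miR-145 OPCs, a log2 fold change of -0.35 (standard error 0.10, adjusted p = 0.0363). That call was lost without either control library (adjusted p = 0.177 without anti-miR-ctl replicate 1 and 0.15 without replicate 2). In miR-ctl OLs Kif5b was at 406.1 and 437.8 CPM, a log2 fold change of -0.09 that was not called. Kif5a, a heavy chain of neurons, was at 89.8 and 82.1 CPM in anti-miR-ctl OPCs and 67.8 and 51.6 CPM in miR-ctl OLs, for a log2 fold change of -0.53 (adjusted p = 0.027; 0.149 without anti-miR-ctl replicate 1 and 0.0939 without replicate 2). Kif5c was not called in either comparison, with log2 fold changes of 0.07 and 0.06.

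Among the light chains, Klc2 and Klc4 were higher in miR-ctl OLs, by log2 fold changes of 0.59 and 0.54, and Klc1 was at 0.02 and not called. Klc1 was instead higher in anti-miR-145 OPCs, at 491.7 and 454.2 CPM against 339.8 and 353.8 CPM, a log2 fold change of 0.46 (standard error 0.09, adjusted p = 0.00913). Without anti-miR-ctl replicate 1 or replicate 2 its adjusted p was 0.114 or 0.0627. The Klc4 call between stages was lost without anti-miR-ctl replicate 1 (adjusted p = 0.0916), and that of Klc2 without replicate 2 (adjusted p = 0.0516). Klc3 was at most at 0.393 CPM in any library.

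Kinesin-2 motors work in the cilium and in dendrites. Kif17, the member that pairs with itself, was at 1.52 and 1.59 CPM in anti-miR-ctl OPCs, 3.23 and 2.91 CPM in anti-miR-145 OPCs and 14.3 and 15.8 CPM in miR-ctl OLs. The groups did not overlap. Its log2 fold change was 3.27 (standard error 0.15, adjusted p = 9.47e-05) between stages and 0.99 (standard error 0.20, adjusted p = 0.0119) with the inhibitor, the latter at an adjusted p of 0.068 without anti-miR-ctl replicate 1. Kif3c fell between stages from 171.4 and 169.1 CPM to 80.8 and 82.9 CPM (log2 fold change -1.06, adjusted p = 0.00025). Kif3a and Kif3b, the pair that drives transport into the cilium, were not called in either comparison, with log2 fold changes from 0.10 to 0.17.

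The kinesin-3 family carries vesicles, endosomes and mitochondria, and all 6 of its members were called between stages, 4 higher and 2 lower. Among all genes tested, 28.8% were called higher and 28.7% lower. Kif1b (ENSRNOG00000057626), which zebrafish oligodendrocytes need to place Mbp mRNA in their processes, was at 800.3 and 746.3 CPM in anti-miR-ctl OPCs and 1357 and 1407 CPM in miR-ctl OLs. These 2 groups did not overlap, and the log2 fold change was 0.83 (standard error 0.08, adjusted p = 0.000903). The related Kif1a and Kif1c rose by log2 fold changes of 0.74 and 0.69, and Kif13b, which binds the scaffold protein Dlg1, by 0.63. Kif13b lost its call without anti-miR-ctl replicate 1 (adjusted p = 0.0943) or replicate 2 (0.0902). Kif13a and Kif16b, motors of recycling and early endosomes, fell by 1.13 and 1.09 on the log2 scale.

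Kif16b was the only kinesin-3 called with the inhibitor. It was at 40.5 and 36.4 CPM in anti-miR-ctl OPCs, 15.4 and 15.2 CPM in anti-miR-145 OPCs and 17.1 and 19.2 CPM in miR-ctl OLs. The anti-miR-145 libraries lay below the OL libraries. The log2 fold change with the inhibitor was -1.31 (standard error 0.10, adjusted p = 0.000166). Kif1b was at 674.5 and 841.4 CPM in anti-miR-145 OPCs, on both sides of its controls, with a log2 fold change of -0.02.

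Of the 9 other kinesins of interphase cells, 5 were higher and 2 were lower in miR-ctl OLs, against 28.8% and 28.7% of all genes. Kif21a (ENSRNOG00000014844), which slows the growth of microtubule ends, was at 10.2 and 8.93 CPM in anti-miR-ctl OPCs and 153.8 and 131.6 CPM in miR-ctl OLs, and its log2 fold change was 3.89 (standard error 0.13, adjusted p = 4.78e-05). Its close relative Kif21b went the other way, from 245.6 and 217.0 CPM to 111.4 and 88.9 CPM (log2 fold change -1.21, standard error 0.13, adjusted p = 0.00127). Both separations are larger than the spread within a group, and the difference between the relatives was not itself tested. Kif26a (ENSRNOG00000013661), a kinesin without motor activity, was at 5.15 and 4.14 CPM in anti-miR-ctl OPCs and 74.7 and 51.7 CPM in miR-ctl OLs, which gave a log2 fold change of 3.76 (standard error 0.23).

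Both Kif21a and Kif26a were lower in anti-miR-145 OPCs, at 5.29 and 5.47 CPM and at 2.73 and 2.63 CPM. The log2 fold changes were -0.82 (adjusted p = 0.00422) and -0.78 (adjusted p = 0.0206), the latter at 0.158 without anti-miR-ctl replicate 1. They were the only 2 members higher in OLs and lower with the inhibitor. Kif24, a ciliary regulator that removes microtubule subunits, also fell with the inhibitor, from 11.0 and 12.6 CPM to 4.47 and 5.65 CPM (log2 fold change -1.21, adjusted p = 0.00162), and was not called between stages at 0.68.

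Kifc2 and Kifc3, whose motor domain lies at the end of the protein, rose between stages by log2 fold changes of 1.44 and 1.36. Kifc3 varied widely between its OL libraries, at 578.3 and 332.0 CPM against 181.0 and 171.9 CPM in anti-miR-ctl OPCs, and its call was lost without anti-miR-ctl replicate 1 (adjusted p = 0.0554) or replicate 2 (0.062). Kif7, of the Hedgehog pathway, rose by 0.48 and lost its call in the same way (0.231 and 0.161). Kif2a, which takes microtubules apart, fell by 0.44 between stages and lost its call likewise (0.094 and 0.0886). Kif26b, near 1 CPM or below in most libraries, was not called in either comparison.

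Of the 4 kinesins of cilia, 3 were higher in OLs and 1 was lower, against 28.8% and 28.7% of all genes. Kif19 (ENSRNOG00000003105), which trims the length of motile cilia, was at 0.65 and 0.71 CPM in anti-miR-ctl OPCs and 24.1 and 17.9 CPM in miR-ctl OLs. This was the largest rise among members with counts in every library, a log2 fold change of 4.93 (standard error 0.23, adjusted p = 9.38e-05). Kif9 was at 0.28 and 0.36 CPM against 1.63 and 1.78 CPM, a log2 fold change of 2.41, and Kif6 was at 0.21 and 0.47 CPM against 0.78 and 1.17 CPM, a log2 fold change of 1.52. The Kif6 call was lost without anti-miR-ctl replicate 1 (adjusted p = 0.236), without replicate 2 (0.067) and without miR-ctl replicate 2 (0.0642), and also by DESeq2 (0.092). Kif27 went from 2.69 and 3.37 CPM to 1.26 and 1.32 CPM (log2 fold change -1.24) and to 1.49 and 1.27 CPM with the inhibitor (log2 fold change -1.12, adjusted p = 0.013). Without anti-miR-ctl replicate 2 the Kif27 calls had adjusted p values of 0.0941 and 0.0691.

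Markers of ependymal cells and motile cilia were present in these libraries. The 11 genes found of that list summed to 11.9 and 12.1 CPM in anti-miR-ctl OPCs, where 8 were under 1 CPM and 1 was at 0, and to 30.2 and 28.4 CPM in miR-ctl OLs, where 4 were under 1 CPM. Of the 10 tested, 5 were higher in OLs and 1 was lower. In the same comparison 9 of 10 astrocyte markers were higher. Their part in the rise of Kif19, Kif6 and Kif9 was not tested.

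**Figure D3:**
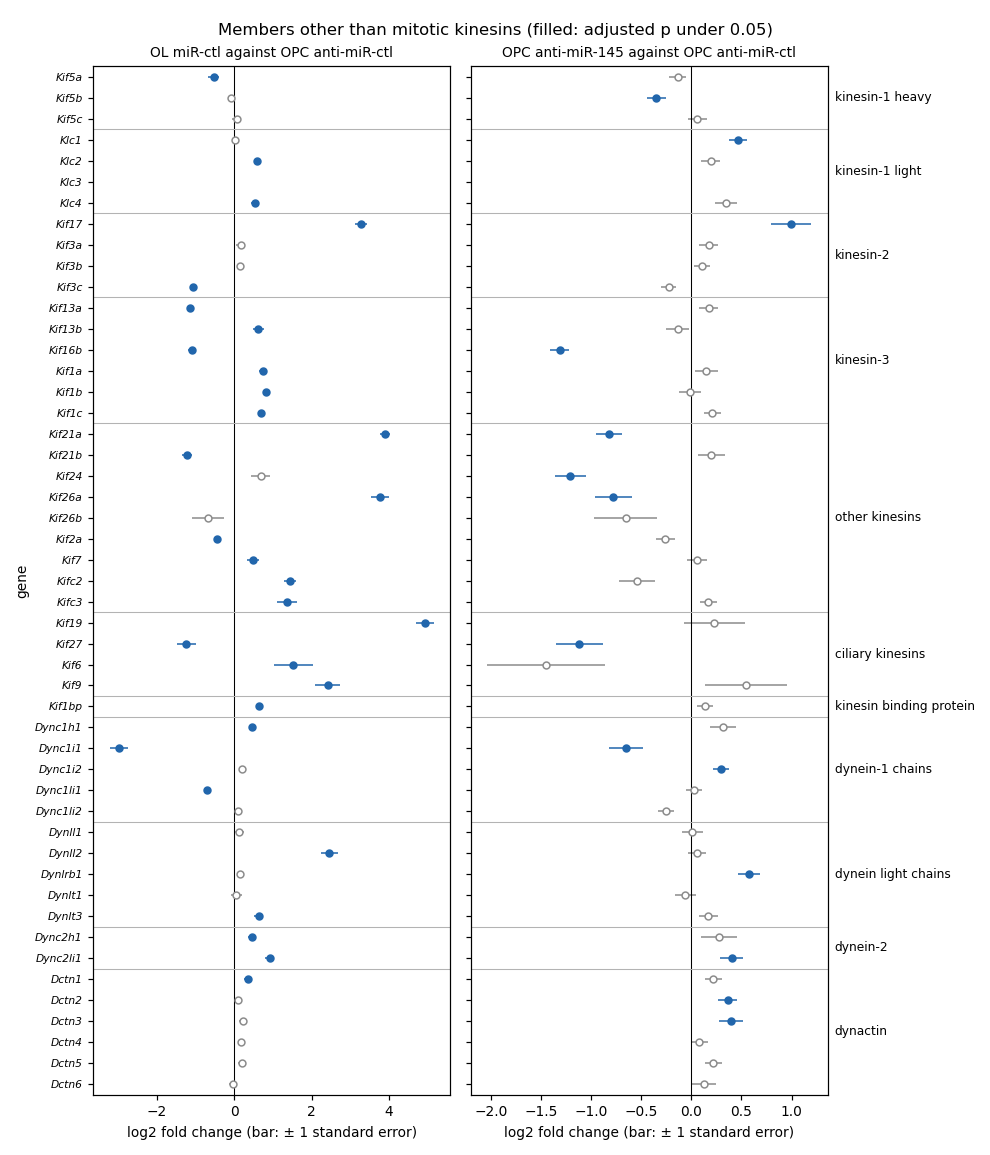
Log2 fold change (horizontal axis) of each member other than the spindle kinesins and Dynlrb2, for miR-ctl OLs against anti-miR-ctl OPCs (left) and anti-miR-145 OPCs against anti-miR-ctl OPCs (right); bars are 1 standard error either way, and filled points have an adjusted p under 0.05. On the left Kif19 (4.93), Kif21a (3.89) and Kif26a (3.76) lie far to the right and Dync1i1 (-2.98) far to the left, while the right panel spans -1.45 to 0.99; Klc3 has no point because it was not tested.

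Cytoplasmic dynein is built on a motor heavy chain, with intermediate chains that bind dynactin and light intermediate chains that bind cargo adaptors. The heavy chain Dync1h1 (ENSRNOG00000006178) was at 776.6 and 706.4 CPM in anti-miR-ctl OPCs and 1046 and 1006 CPM in miR-ctl OLs, with a log2 fold change of 0.46 (standard error 0.09, adjusted p = 0.00737). The call was lost without anti-miR-ctl replicate 1 (adjusted p = 0.065) or replicate 2 (0.117). In anti-miR-145 OPCs it was at 792.0 and 1034 CPM, both above the controls but far apart, and was not called (log2 fold change 0.31, adjusted p = 0.111).

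The paired subunits of dynein differed from each other in how they changed with stage. Dync1i1 (ENSRNOG00000009700), the intermediate chain best known from neurons, fell from 7.98 and 6.58 CPM to 1.03 and 0.80 CPM, a log2 fold change of -2.98 (standard error 0.23, adjusted p = 0.000398). Dync1i2, the intermediate chain found in most cells, was at 218.9 and 220.6 CPM and at 240.8 and 265.0 CPM, a log2 fold change of 0.20 that was not called. With the inhibitor Dync1i1 fell to 4.10 and 5.09 CPM (log2 fold change -0.65, adjusted p = 0.0279) and Dync1i2 rose to 270.7 and 261.7 CPM (log2 fold change 0.29, adjusted p = 0.0335). Without anti-miR-ctl replicate 1 those adjusted p values were 0.18 and 0.341, and without replicate 2 that of Dync1i2 was 0.289.

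Of the light intermediate chains, Dync1li1 fell between stages from 113.8 and 116.0 CPM to 72.5 and 68.3 CPM (log2 fold change -0.71, standard error 0.08, adjusted p = 0.00111). Dync1li2 was at 348.9 and 341.9 CPM and at 367.4 and 378.0 CPM and was not called (log2 fold change 0.11). Neither was called with the inhibitor, where Dync1li2 was at 277.7 and 296.5 CPM (log2 fold change -0.25, adjusted p = 0.0529).

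Neuronal markers moved in the direction of Dync1i1 and Kif5a between stages. Kif1a (log2 fold change 0.74) and Kif17 (3.27) went the other way, and Kif5c (0.07) was not called. Of 12 neuronal markers found, 9 were lower in miR-ctl OLs and 1, Tubb3, was higher, with a median log2 fold change of -1.60. They summed to 923 and 938 CPM in anti-miR-ctl OPCs and to 315 and 266 CPM in miR-ctl OLs. Gap43 alone was at 499.4 and 536.7 CPM of the OPC sums and 83.1 and 57.5 CPM of the OL sums. The neuronal nuclear marker Rbfox3 was at 5.73 and 5.37 CPM and at 2.16 and 1.47 CPM. In anti-miR-145 OPCs, where Dync1i1 was lower, 5 of the 12 neuronal markers were higher, 0 were lower, and they summed to 986 and 1021 CPM. The part of neuronal RNA in these results was not tested.

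The dynein light chains bind the intermediate chains, and Dynll1 and Dynll2 also serve as dimer clamps for many other proteins. Dynll2 (ENSRNOG00000008921) rose between stages from 139.0 and 149.1 CPM to 967.2 and 622.8 CPM, a log2 fold change of 2.46 (standard error 0.22, adjusted p = 0.000672). Dynll1 was at 306.4 and 327.1 CPM in anti-miR-ctl OPCs and 390.8 and 301.9 CPM in miR-ctl OLs; these groups overlapped and it was not called (log2 fold change 0.12). With the inhibitor both stayed within 0.06 of 0 on the log2 scale and were not called. Dynlt3 rose between stages by 0.63 (adjusted p = 0.00579; 0.0662 without anti-miR-ctl replicate 1), and Dynlt1 overlapped between groups (0.05). How reads shared between similar light chain genes were divided was not examined, so their counts are uncertain to that extent.

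The roadblock light chains also differed. Dynlrb2 had 0 counts in all 4 OPC libraries and 46 to 103 counts in each of the 6 OL libraries. Against a floor of 3 counts per OPC library, its level in miR-ctl OLs, 1.76 and 2.36 CPM, was at least 27.1-fold higher than in anti-miR-ctl OPCs. Dynlrb1 was at 184.7 and 195.3 CPM in anti-miR-ctl OPCs and 199.3 and 226.3 CPM in miR-ctl OLs and was not called between stages (log2 fold change 0.16). With the inhibitor Dynlrb1 rose to 303.5 and 256.6 CPM (log2 fold change 0.58, standard error 0.11, adjusted p = 0.00859), with an adjusted p of 0.0542 without anti-miR-ctl replicate 1.

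**Figure D4:**
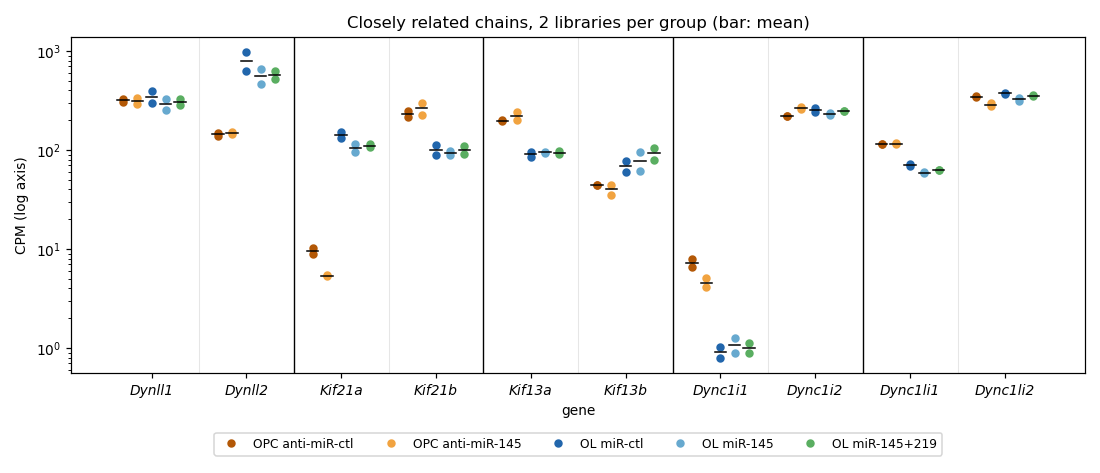
Level in CPM on a log axis of 5 pairs of related chains, each point a library and each bar a group mean of 2 libraries. Dynll2, Kif21a and Dync1i1 shift between OPC and OL libraries while Dynll1 and Dync1i2 stay within 255.7 to 390.8 and 218.9 to 270.7 CPM; CPM is not corrected for gene length, so heights are to be compared within a gene only.

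Dynein-2 returns cargo from the tip of the cilium. Its heavy chain Dync2h1 rose between stages from 35.8 and 34.0 CPM to 50.9 and 44.9 CPM (log2 fold change 0.45, adjusted p = 0.0121), a call lost without anti-miR-ctl replicate 1 (0.0919) or replicate 2 (0.12). Its light intermediate chain Dync2li1 rose by 0.91 between stages (adjusted p = 0.00203). With the inhibitor Dync2li1 went from 11.9 and 13.2 CPM to 16.9 and 15.8 CPM (log2 fold change 0.40, adjusted p = 0.0365), which was 0.352 and 0.123 without anti-miR-ctl replicate 1 and replicate 2, and 0.0534 by DESeq2. Besides Kif17 it was the only member higher in both comparisons.

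Dynactin, the complex that ties dynein to its cargo, was among the most even sets. Dctn1, its large arm that grips microtubules, rose between stages from 436.5 and 434.4 CPM to 518.9 and 608.8 CPM (log2 fold change 0.37, standard error 0.10, adjusted p = 0.0294; 0.182 without anti-miR-ctl replicate 1 and 0.18 without replicate 2). The other 5 subunits were not called, with log2 fold changes from -0.03 to 0.23. With the inhibitor all 6 fold changes were above 0, with a median of 0.22, and 2 were called higher, against 12.1% of all genes. Dctn2 went from 253.4 and 260.6 CPM to 347.0 and 307.4 CPM (log2 fold change 0.36, adjusted p = 0.0296), and Dctn3 from 59.6 and 65.4 CPM to 88.8 and 73.9 CPM (log2 fold change 0.40, adjusted p = 0.0461). Without anti-miR-ctl replicate 1 the adjusted p values were 0.242 and 0.294, and without replicate 2 they were 0.164 and 0.0992. The kinesin binding protein Kif1bp rose between stages from 93.5 and 95.6 CPM to 141.9 and 152.9 CPM (log2 fold change 0.64, adjusted p = 0.00191) and was not called with the inhibitor.

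Partners of the motors that the rule does not match changed in both directions. Of 22 dynein and dynactin partners found, 4 were higher and 5 were lower in miR-ctl OLs, and 3 were higher and 4 lower in anti-miR-145 OPCs. Among all genes 28.8% were higher and 28.7% lower between stages, and 12.1% were higher and 16% lower with the inhibitor. Pafah1b1 (Lis1), which keeps dynein active, rose between stages from 451.6 and 448.8 CPM to 572.5 and 596.4 CPM (log2 fold change 0.37, adjusted p = 0.0106), as did the adaptor Bicd2 (0.73). Spdl1, the dynein adaptor of kinetochores, fell between stages and with the inhibitor (log2 fold changes -2.37 and -1.32), and so did Nde1 (-0.69 and -0.97). Ninl fell between stages (-0.94) and rose with the inhibitor (1.12).

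Of 19 genes found on the list of kinesin cargo adaptors, which also holds the spindle kinesin Cenpe (lower in both comparisons), 4 were higher and 7 lower in OLs, and 3 were higher and 2 lower with the inhibitor. The shares of all genes were again 28.8% and 28.7% between stages, and 12.1% and 16% with the inhibitor. Mapk8ip1, a scaffold that binds kinesin light chains, rose by 1.46 between stages, and the lysosome adaptors Arl8b and Plekhm2 rose by 0.74 and 0.73. Disc1 and Sybu, an adaptor for axonal vesicles, fell, with log2 fold changes of -3.32 and -1.74. With the inhibitor Kifap3, the third subunit of the Kif3 motor, rose by 0.33 and Mapk8ip3 by 0.48.

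The remaining comparisons asked what the mimics do in OLs. In miR-145 OLs against miR-ctl OLs, 0 of 62 members were called by edgeR, as were 0% of all 15461 genes tested. The smallest adjusted p of a member was 0.284. DESeq2 on the same libraries called 0 members, and 649 genes in all. An unadjusted p under 0.05 was reached by 5 members (8.06%), 2 higher and 3 lower, against 13.4% of all genes. The miR-145 and miR-ctl libraries did not overlap for 18 members, 6 higher and 12 lower, which is 29% against 47.3% of all genes. These shares were below those of all genes, and the median log2 fold change was -0.02 over the members and -0.01 over all genes.

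The 3 lower members, Kif26a, Kif19 and Kif21a, were also the 3 with the largest rises between stages among members with counts in every library; the miR-ctl libraries enter both comparisons with opposite sign, so this is no separate result. Kif26a was at 74.7 and 51.7 CPM in miR-ctl OLs, 46.4 and 34.9 CPM in miR-145 OLs and 41.4 and 46.0 CPM in miR-145+miR-219 OLs. Kif19 was at 24.1 and 17.9 CPM, 12.9 and 14.4 CPM, and 11.83 and 12.52 CPM in the same groups. Kif21a was at 153.8 and 131.6 CPM, 96.1 and 115.3 CPM, and 106.5 and 114.9 CPM. For each of them all 4 libraries with a miR-145 mimic lay below both miR-ctl libraries. The log2 fold changes with miR-145 were -0.63 for Kif26a (adjusted p = 0.34), -0.62 for Kif19 (adjusted p = 0.284) and -0.43 for Kif21a (adjusted p = 0.324). None of them was called in this edgeR fit, which holds no term for the replicate number. The closing section gives the fit with such a term.

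The 2 higher members at that level were Kif1c, a vesicle motor, and Dynlt3. Kif1c was at 340.4 and 311.7 CPM in miR-ctl OLs, 453.6 and 401.8 CPM in miR-145 OLs and 410.6 and 369.7 CPM in miR-145+miR-219 OLs (log2 fold change with miR-145 0.40, adjusted p = 0.3). Dynlt3 was at 47.4 and 52.9 CPM, 68.6 and 58.5 CPM, and 61.8 and 47.0 CPM, with log2 fold change 0.35 (adjusted p = 0.355). The miR-145+miR-219 libraries of Dynlt3 lay on both sides of its controls.

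Most core transport subunits differed little between these groups. With miR-145 the log2 fold changes of Dync1h1 and Dctn1 were -0.0012 and -0.0043, those of Kif1b, Klc1, Kif1a and Kif5c ran from 0.03 to 0.09, and those of Kif5b, Dync1i2, Kif3a and Dynll1 from -0.25 to -0.11, with standard errors of 0.11 to 0.19. Dynll2 was at 967.2 and 622.8 CPM with miR-ctl, 662.7 and 463.6 CPM with miR-145 and 630.7 and 523.2 CPM with miR-145+miR-219, and its groups overlapped (log2 fold changes -0.49 and -0.46, standard errors 0.27 and 0.25). Kif5a had a log2 fold change of -0.17 with miR-145 (standard error 0.16), and Dync1i1, near 1 CPM, had 0.23 (standard error 0.39). A p above the threshold with 2 libraries per group does not show that levels were equal.

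In miR-145+miR-219 OLs against miR-ctl OLs, 0 of 62 members were called by edgeR and by DESeq2, with 0% of all 15436 genes called by edgeR and a smallest adjusted p of 0.8 among members. Kif19, Kif21a and Kif26a were the 3 members with an unadjusted p under 0.05 (4.84%, against 6.19% of all genes), with log2 fold changes of -0.78, -0.36 and -0.53. Both comparisons use the same miR-ctl libraries, so the recurrence of these 3 genes is not a second observation. Groups did not overlap for 18 members, 10 higher and 8 lower, 29% against 36.7% of all genes.

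Adding miR-219 to miR-145 was examined by setting miR-145+miR-219 OLs against miR-145 OLs. edgeR and DESeq2 each called 0 of 62 members, edgeR called 0% of all 15501 genes, 0 members had an unadjusted p under 0.05 (1.47% of all genes did), and the smallest adjusted p was 1. Groups did not overlap for 13 members, 10 higher and 3 lower, 21% against 24.8% of all genes. The motor partners likewise gave 0 calls in the 3 mimic comparisons, with unadjusted p under 0.05 for Nde1, Fez2 and Plekhm2 with miR-145. With miR-145+miR-219 against miR-ctl, 1 of the 22 dynein and dynactin partners reached that level. Of all genes 13.4% did with miR-145 and 6.19% with miR-145+miR-219, each against miR-ctl.

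Markers of other cells also differed in level between the mimic groups without being called by edgeR. All 10 astrocyte markers had positive log2 fold changes with miR-145 (median 0.88, 8 with an unadjusted p under 0.05), and they summed to 6987 and 5959 CPM with miR-ctl, 14642 and 9949 CPM with miR-145 and 12174 and 7216 CPM with miR-145+miR-219. All 12 microglial markers were also positive with miR-145 (median 0.67), summing to 415 and 613 CPM with miR-ctl and 421 and 1043 CPM with miR-145. Of the fibroblast and mural genes 6 of 6 tested had an unadjusted p under 0.05 (median 1.86, 5 positive). The negative one was Cspg4, also on the OPC list. Of the ependymal and motile cilia genes 8 of 11 were positive (median 0.59, 5 with an unadjusted p under 0.05). Of 13 markers of maturing OLs 8 were negative (median -0.23). None of these genes was called in this edgeR fit, which called 0% of all genes. An unadjusted p under 0.05 was reached by 13.4% of all genes with miR-145. The part of these markers in the values of Kif26a, Kif19, Kif21a, Kif1c and Dynlt3 was not tested.

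**Figure D5:**
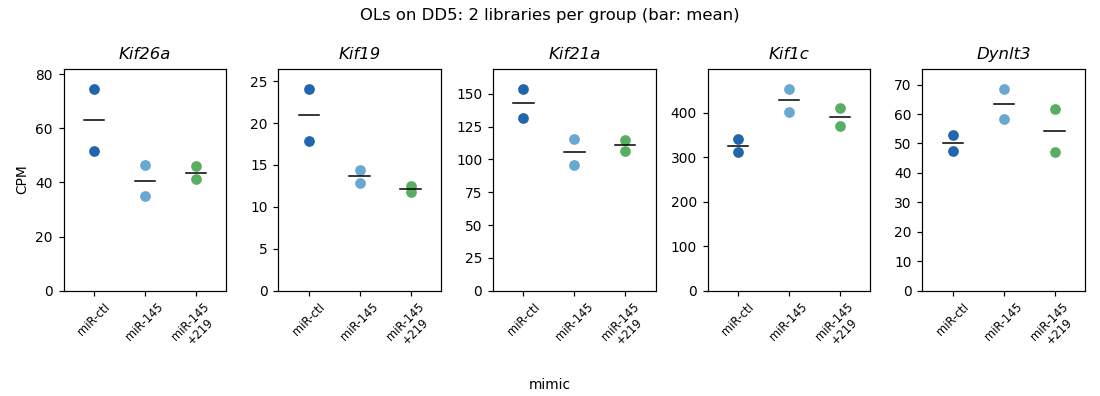
Level in CPM, on axes that start at 0, of the 5 members with an unadjusted p under 0.05 in miR-145 OLs against miR-ctl OLs; each point is a library and each bar the mean of 2. For Kif26a, Kif19 and Kif21a both points of each mimic group lie below both miR-ctl points, and for Kif1c they lie above.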

How the data were processed

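mRNA libraries (TruSeq Stranded mRNA) of primary rat OLs and OPCs were grouped by sample title and description. The authors assigned reads to GENCODE Rnor6.0 transcripts with Salmon 0.12.0, summed them by gene with tximport, and deposited the estimated counts, which carry no normalization, for 23487 genes; these were rounded to whole numbers. The authors also deposited a DESeq2 table for miR-145 against miR-ctl OLs, holding a mean signal, log2 fold changes with standard errors, a score and p-values. Only its list of genes, with their symbols and gene identifiers, was used.

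The fit of each comparison held only its 4 libraries and used edgeR 4.0.16 (R 4.3.3; TMM, estimateDisp, glmQLFit, glmQLFTest) over genes that reached 5 counts in 2 or more libraries, with Benjamini-Hochberg adjustment over all genes and calls at an adjusted p under 0.05. Fits were tested on simulated data. Standard errors are the size of the log2 fold change over the square root of F. Replicates differed by more than counting error (chi-square per gene 11.6 to 79.8), and 2 libraries per group limit precision. The standard errors include the spread between replicates as estimated by the fit. The floor used for Dynlrb2 covers counting error only. DESeq2 1.42.0, its size factors, other filters, all 5 groups in a single fit, a replicate term and leaving out each library were tried. Figures used Python 3.11.15 with matplotlib 3.10.9, pandas 2.3.3 and numpy 2.4.6.

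Named genes were to be the 10 called members with the smallest p in each direction (with no calls, those with an unadjusted p under 0.05 and groups that did not overlap), plus core transport and spindle subunits; further members were named after their values were seen, so that each role is accounted for. The members and lists were chosen with earlier results of these data known.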

Additional observations from a re-analysis of the deposited data

How the results depend on the processing

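With a term for the replicate number (a replicate block), edgeR called 7 members in miR-145 OLs against miR-ctl OLs, 1 higher and 6 lower, in place of 0; over all genes it called 2272 of 15461 in place of 0. Among these were Kif26a (adjusted p = 8.3e-05), Kif19 (0.00377), Kif21a (0.00833) and Kif1c (0.016). Deviations of same-numbered libraries correlated at 0.40 there, at 0.47 and 0.63 in the other mimic comparisons, at 0.07 between stages and at -0.15 in the OPC comparison, and no label ties equal numbers to a shared culture. The block gave 23 calls with the inhibitor in place of 26, 44 between stages, and 0 in the other mimic comparisons; crossing the numbers in the OPC comparison, an alternative chosen after seeing the data, gave 31. With each library left out in turn, members called with the inhibitor ran from 16 to 37 in all and from 0 to 14 higher, and members called higher between stages from 14 to 30. Leaving a library out leaves 1 in its group, which is then assumed to vary like the other group.

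The 12 spindle kinesins stayed lower in both comparisons under each of the 10 alternatives, and no direction of a called member reversed. Over all refits, calls of members were lost 28 times and kept 232 times with the inhibitor, and lost 26 times and kept 414 times between stages. DESeq2 called 27 and 44 members, and a single fit of all 5 groups called 21 and 43. Scaling by library totals alone would shift the median of all genes between stages from 0.01 to -0.12, and log2 fold changes would be lower by about as much. Klc3 and Dynlrb2 in OPCs had too few counts for a fold change, and Kif6, Kif9, Kif17, Kif19, Kif26b and Kif27 had under 4 CPM in OPCs, where counting error is widest.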
